A study of Mus musculus with 28 samples.

Results

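Lysosome and autophagy genes were described across 28 arrays of 2 mouse cell lines kept at 2 glucose concentrations. The set was a list of 47 genes for lysosomal hydrolases, lysosomal membrane and luminal proteins, subunits of the lysosomal proton pump, autophagy proteins and the transcription factors that bind their promoters. A gene was matched by the symbol in the array's annotation, and the most variable of its probe sets (by SD) stood for it. Of the 47 genes, 46 had such a probe set, among 18193 genes in all. The gene without one was Cd63, a tetraspanin of late endosomes. By role, 12 measured genes coded for cathepsins and other proteases, 9 for glycosidases and lipid hydrolases, 6 for membrane and luminal proteins, 4 for proton pump subunits, 3 for transcription factors and 12 for autophagy proteins.

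The lysosome is the acidic compartment in which cells break down proteins, glycans and lipids taken up from outside or delivered from the cytoplasm. A vacuolar ATPase pumps protons into it, most of its hydrolases are made as precursors that are sorted through the Golgi apparatus, and heavily glycosylated proteins such as LAMP1 and LAMP2 line its membrane. Autophagy encloses cytoplasm in a double membrane that carries lipid-linked LC3 and fuses with the lysosome. The factors TFEB, TFE3 and MITF bind E-boxes in promoters of many of these genes, and their entry into the nucleus is controlled by phosphorylation, so their own transcript levels need not report their activity.

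The cultures were of NIH3T3 K-ras, a line of NIH3T3 cells named for the Ras oncogene, and of NIH3T3, a mouse embryonic fibroblast line. The Ras allele, its promoter and the number of clones behind the K-ras line are not stated in these sources. Cells were sampled at the change of medium (0 h, 25 mM glucose) and 24, 48 and 72 h later in medium with either 1 mM or 25 mM glucose, with the same serum and glutamine for all. That gave 14 groups of 2 arrays, labelled as biological replicates: each line at 25 mM at 0, 24, 48 and 72 h and at 1 mM at 24, 48 and 72 h. Nothing in the labels says whether the 2 cultures of a group were grown at separate times, so p-values measure the spread between them only. RNA came from whole cultures, in which fewer cells of a type and less RNA per cell cannot be told apart.

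Deposited values were log2 ratios of a probe set's signal to its median on the 28 arrays, so 1 is a doubling relative to that median, and levels cannot be compared between genes. For the same reason the labelled cell type could not be checked by marker levels. The means of 10 fibroblast markers lay between -0.46 and 0.97 on the 8 K-ras arrays at 25 mM, against -1.12 to 1.09 on the 8 NIH3T3 arrays at 25 mM. On the 500 most variable genes, 6 arrays had the profile of the line opposite to their label: both NIH3T3 arrays at 1 mM 24 h, replicate 1 of NIH3T3 at 1 mM 48 h, and replicate 1 of K-ras at 25 mM 0 h, 1 mM 48 h and 1 mM 72 h. They kept their labelled groups in every test. Medians over the members that rest on them are also given without them where arrays remained, as are some counts. Spiked-in BioC control transcripts were low (-2.34 to -0.84) on 12 arrays, all labelled NIH3T3 and including all 8 at 25 mM, and were at least -0.26 on the other 16. At 25 mM that control and the line cannot be told apart. Replicate 1 of K-ras at 25 mM 72 h had an interquartile range of 0.654 over all probe sets, wider than on every other array (at most 0.449).

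Promoters are shown for the members called higher in NIH3T3 at 72 h against 0 h whose RefSeq window holds CACGTG, the E-box core that MiT/TFE factors bind. Each run is the 250 bases before the gene's start in GRCm38.p6, 5′ to 3′ on the gene's strand, and capitals mark CACGTG. The windows are chr9:114400828-114401077 on the plus strand for Glb1 (β-galactosidase), chr7:142387828-142388077 on the minus strand for Ctsd (cathepsin D, an aspartic protease) and chr8:13158911-13159160 on the plus strand for Lamp1.
Glb1: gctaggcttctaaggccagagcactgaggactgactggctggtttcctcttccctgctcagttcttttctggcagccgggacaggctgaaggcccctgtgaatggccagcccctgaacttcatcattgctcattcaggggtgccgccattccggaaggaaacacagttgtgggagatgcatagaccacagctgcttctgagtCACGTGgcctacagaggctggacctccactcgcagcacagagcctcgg
Ctsd: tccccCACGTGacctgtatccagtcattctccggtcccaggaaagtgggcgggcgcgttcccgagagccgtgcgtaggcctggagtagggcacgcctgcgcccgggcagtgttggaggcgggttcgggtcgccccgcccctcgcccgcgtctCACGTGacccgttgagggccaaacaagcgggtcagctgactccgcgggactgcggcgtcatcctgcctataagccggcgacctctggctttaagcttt
Lamp1: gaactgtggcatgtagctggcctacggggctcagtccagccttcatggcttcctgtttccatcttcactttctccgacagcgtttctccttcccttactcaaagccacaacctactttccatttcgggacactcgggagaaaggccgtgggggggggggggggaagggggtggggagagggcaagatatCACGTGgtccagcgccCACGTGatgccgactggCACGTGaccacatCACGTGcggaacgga
The Glb1 window held 1 copy, whose first base is at -48, counting the last base before the gene's start as -1. The Ctsd window held 2, at -245 and -98, and the Lamp1 window held 4, at -61, -45, -28 and -15.

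Among members, CACGTG was common in these windows. Of the 46 measured members, 39 had a RefSeq window around the start, which reaches a little into the gene, and 14 of the 39 (35.9%) held CACGTG, against 10.2% of the 14452 measured genes with a window and 8.09% of 27025 genes with a window. The motif reads the same on both strands. The longer form GTCACGTG, or its reverse complement CACGTGAC, which contains the first motif, was in 9 of 39 members (23.1%), against 3.77% of the measured genes and 2.55% of all genes with a window. Of 8 members with a window that were called at 72 h against 0 h in NIH3T3, 3 held CACGTG (37.5%), near the share of all members. Ctso, Grn, Tpp1, Map1lc3b and Atg9a, also called there, had windows without it. At 72 h against 24 h, 7 of 15 called members with a window held CACGTG (46.7%), against 7 of 24 not called (29.2%). The longer form was in 6 (40.0%) and 3 (12.5%) of them. These shares were not tested. A match describes the letters of the window and nothing about binding. The median change of NIH3T3 at 72 h against 0 h was 1.11 on the log2 scale over the 14 members with CACGTG and 0.89 over the 25 without it, and their ranges (-0.55 to 1.73 and -0.44 to 3.80) overlapped.

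In NIH3T3 at 25 mM glucose, 9 genes were called higher at 72 h than at the medium change: the proteases Ctso, Tpp1 and Ctsd, the glycosidase Glb1, the membrane and luminal proteins Lamp1 and Grn, and the autophagy genes Map1lc3b, Atg9a and Atg12. A gene was called at an adjusted p under 0.05 (limma, Benjamini-Hochberg over 18193 genes). They were 9 of 46 members (19.6%), with 0 called lower, where 5.52% of all genes were called and 3.68% were called higher. The median log2 fold change over the 46 was 0.97, against -0.07 over all genes, and 40 of 46 were positive. Both 72 h arrays lay above both 0 h arrays for 36 members and below them for 4, where 27.1% of all genes had both 72 h arrays above. The 46 changes ran from -0.55 to 3.80.

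Against 24 h, 15 of 46 members (32.6%) were called, all 15 higher, where 6.15% of all genes were called and 4.06% were called higher. The median over the members was 0.96, against -0.10 over all genes, with 38 of 46 positive. For 34 members both 72 h arrays lay above both 24 h arrays and for 3 below them, where 25.7% of all genes had both 72 h arrays above. The comparisons with 0 h and with 24 h share the 72 h arrays.

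These counts rest on few arrays. Without any 1 of the 4 arrays of the 72 h against 0 h comparison, 0 of 46 members were called, and genes called higher over the whole table numbered 8 to 101 in place of 670. Quantile normalisation left 3 members called, Glb1, Map1lc3b and Tpp1. The median over the members lay between 0.88 and 0.98 over the 4 fits that left out 1 array.

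Neither earlier time gave a call. At 24 h against 0 h, 0 members were called by limma, where 0.0055% of all genes were called, and the median was -0.07. At 48 h against 0 h, 0 members were called, where 0.0605% of all genes were called, and the median was 0.47. An unadjusted p under 0.05 was found for 1 member and 828 of 18193 genes at 24 h. At 48 h it was found for 13 members and 2103 genes. The 48 h replicates differed, with a median over the members of 0.47 on replicate 1 and -0.19 on replicate 2. By array, the medians were -0.37 and -0.25 at 0 h, -0.29 and -0.67 at 24 h, and 0.60 and 0.53 at 72 h. Replicate 1 at 48 h resembled the 72 h arrays in this measure and replicate 2 lay between them and the earlier arrays.

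**Figure D1:**
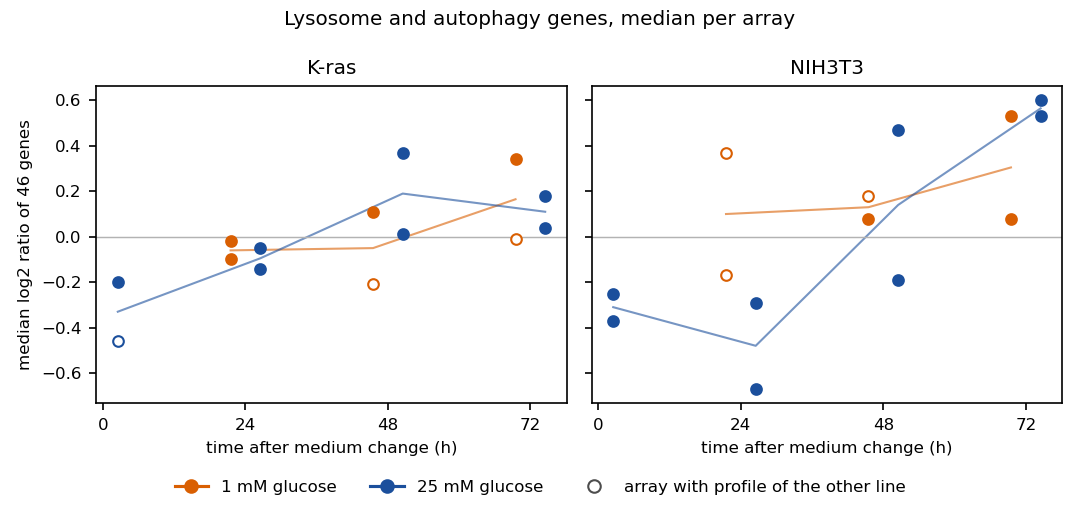
Median log2 ratio of the 46 genes on each array (y axis) by hours after the medium change (x axis, points moved sideways by glucose), for K-ras (left) and NIH3T3 (right). Lines join group means and hollow points are arrays with the profile of the other line. The NIH3T3 arrays at 25 mM and 72 h stand at 0.60 and 0.53, and the 24 h arrays at -0.29 and -0.67.

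Among the proteases, the cysteine cathepsin Ctso had the largest change of the 46. Its log2 ratios were -1.32 and -2.10 at 0 h, -2.18 and -2.12 at 24 h, 2.26 and -0.52 at 48 h, and 2.11 and 2.08 at 72 h. The 72 h arrays stood apart from the 0 h and 24 h arrays, and the 48 h replicates fell on opposite sides of 0. The log2 fold change was 3.80 ± 0.92 at 72 h against 0 h (SE, limma adjusted p = 0.0248) and 4.24 ± 0.92 against 24 h (limma adjusted p = 0.0166). A further probe set of Ctso gave 0.62 at 72 h against 0 h, so the size of its change depends on the probe set.

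Tpp1, a tripeptidyl peptidase, had log2 ratios of -0.27 and -0.50 at 0 h, -0.32 and -0.65 at 24 h, 2.06 and 0.29 at 48 h, and 1.86 and 1.98 at 72 h. It rose by 2.31 ± 0.53 against 0 h (SE, limma adjusted p = 0.0188), and its other probe set gave 1.85. Ctsd had -0.59 and -0.23 at 0 h, -0.41 and -0.92 at 24 h, 0.97 and 0.02 at 48 h, and 1.29 and 0.99 at 72 h. It rose by 1.55 ± 0.37 against 0 h (SE, limma adjusted p = 0.0217). In both genes the 72 h arrays lay above all 4 arrays at 0 h and 24 h. Ctsa, the carboxypeptidase that stabilises β-galactosidase and neuraminidase, rose by 1.85 ± 0.50 against 24 h (SE, limma adjusted p = 0.0384), while its other probe set gave -0.01.

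The other 8 proteases were not called in either comparison. Ctsb, the cysteine protease cathepsin B, had values of -0.51 and -0.31 at 72 h, against -1.10 and -0.94 at 0 h, a log2 fold change of 0.61 ± 0.79 (limma adjusted p = 0.748). Ctsl, cathepsin L, had a log2 fold change of 0.51 ± 0.44 (limma adjusted p = 0.58) and Ctsz, the carboxypeptidase cathepsin X/Z, one of 0.64 ± 0.28. Ctsk, the collagen-degrading cathepsin of osteoclasts, was at -0.40 ± 1.28. Ctsc, Ctsf, Ctsh and Ctss, the last known from antigen-presenting cells, lay between -0.20 and 0.22. In all, 3 of 12 proteases were called against 0 h and 4 of 12 against 24 h, with medians of 0.56 and 0.51.

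Among the 9 glycosidases and lipid hydrolases, Glb1 was called in both comparisons. It had log2 ratios of -0.99 and -0.70 at 0 h, -0.30 and -0.78 at 24 h, 0.95 and -0.38 at 48 h, and 0.88 and 0.54 at 72 h. The rise was 1.56 ± 0.35 against 0 h (SE, limma adjusted p = 0.0181) and 1.25 ± 0.35 against 24 h (limma adjusted p = 0.0454). Against 24 h, 3 more enzymes rose: the sialidase Neu1 by 1.98 ± 0.51, the acid α-glucosidase Gaa by 1.55 ± 0.42 and the β-hexosaminidase subunit Hexa by 1.47 ± 0.41 (limma adjusted p from 0.0318 to 0.0427). The 2 other probe sets of Neu1 gave -0.07 and -0.27 in that comparison.

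The remaining 5 of this group were not called. Naglu, an α-N-acetylglucosaminidase, had a log2 fold change of 1.79 ± 0.56 against 24 h (limma adjusted p = 0.0642). Asah1, acid ceramidase, and Lipa, the lysosomal acid lipase, had values of 1.35 ± 0.46 and 1.53 ± 0.44 against 0 h, with both 72 h arrays above both 0 h arrays. Gla, α-galactosidase A, was at 0.47 ± 0.55. Gusb, β-glucuronidase, was at -0.44 ± 0.72, and its other probe set at 0.45. The median over the 9 was 1.35 against 0 h and 1.25 against 24 h.

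Among membrane and luminal proteins, 2 of 6 were called against 0 h and 5 of 6 against 24 h, with medians of 1.35 and 1.93. Lamp1 had log2 ratios of -0.05 and 0.19 at 0 h, 0.01 and -0.01 at 24 h, 1.37 and 0.42 at 48 h, and 1.27 and 1.16 at 72 h. The 0 h and 24 h arrays overlapped and all later arrays lay above them. The rise was 1.15 ± 0.32 against 0 h (SE, limma adjusted p = 0.0421) and 1.22 ± 0.32 against 24 h (limma adjusted p = 0.0309).

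Lamp2, needed for the fusion of autophagosomes with lysosomes, had -1.20 and -1.54 at 0 h, -2.96 and -2.40 at 24 h, 0.89 and -0.98 at 48 h, and 0.87 and 0.27 at 72 h. It was lowest at 24 h, and it was called against 24 h (3.25 ± 0.80, limma adjusted p = 0.0251) but not against 0 h (1.94 ± 0.80, limma adjusted p = 0.173). Its 3 other probe sets gave 2.36, 2.29 and 2.09 against 24 h. Grn, the precursor of the granulins, had -0.92 and -1.61 at 0 h, -1.39 and -0.92 at 24 h, 1.24 and -0.30 at 48 h, and 1.23 and 1.06 at 72 h. It rose by 2.41 ± 0.61 against 0 h (SE, limma adjusted p = 0.0287), and its other probe sets gave 2.18 and 2.08. The lysosomal calcium channel Mcoln1 and the cholesterol carrier Npc2 rose against 24 h by 2.0 ± 0.49 and 1.86 ± 0.54 (limma adjusted p = 0.0261 and 0.0491). Other probe sets gave 1.54 and 0.65 for Mcoln1 and 0.68, 0.75 and -0.08 for Npc2. Psap, the precursor of the saposins that help sphingolipid hydrolases, had a log2 fold change of 1.53 ± 0.76 and was not called.

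Of the 4 proton pump genes, 0 were called against 0 h and 1 against 24 h, with medians of 0.88 and 0.90. That 1 was Atp6v0d1, a subunit of the membrane sector. It had log2 ratios of -0.34 and 0.07 at 0 h, -0.52 and -0.70 at 24 h, 1.34 and 0.01 at 48 h, and 1.23 and 1.22 at 72 h, and rose by 1.83 ± 0.40 against 24 h (SE, limma adjusted p = 0.0166). The catalytic subunit Atp6v1a, the regulatory subunit Atp6v1h and the accessory protein Atp6ap1 had log2 fold changes of 1.23 ± 0.55, 0.56 ± 0.33 and 0.56 ± 0.27 against 24 h and were not called.

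None of the 3 transcription factors was called in either comparison. Tfeb had 0.12 and 0.13 at 72 h, against 0.29 and 0.15 at 0 h, a log2 fold change of -0.10 ± 0.23 (limma adjusted p = 0.887). Tfe3 was at 0.32 ± 0.35 (limma adjusted p = 0.688). Mitf had -1.29 and -1.93 at 0 h, -0.56 and -1.10 at 24 h, 0.01 and -0.33 at 48 h, and -0.22 and 0.00 at 72 h. Its 72 h arrays lay above its 0 h arrays, with a log2 fold change of 1.50 ± 0.56 (limma adjusted p = 0.133).

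Among the 12 autophagy genes, 3 were called against 0 h and 1 against 24 h, with medians of 0.84 and 0.85. Map1lc3b, which codes for the LC3B protein that is linked to autophagosome membranes, was the one called in both. It had log2 ratios of -0.37 and 0.04 at 0 h, -0.20 and -0.48 at 24 h, 1.99 and 0.50 at 48 h, and 1.98 and 1.78 at 72 h. The rise was 2.04 ± 0.47 against 0 h (SE, limma adjusted p = 0.019) and 2.22 ± 0.47 against 24 h (limma adjusted p = 0.0142). Of its other probe sets, 2 gave 2.04 and 1.72 against 0 h and 1 gave -0.07.

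Atg9a, the scramblase carried by vesicles that seed the autophagosome, rose by 1.33 ± 0.36 against 0 h (SE, limma adjusted p = 0.0399). Atg12, the ubiquitin-like protein joined to ATG5, rose by 1.29 ± 0.36 (limma adjusted p = 0.0463), while its other probe sets gave 0.55 and 0.29. Sqstm1, the cargo receptor p62, had 0.57 and 0.38 at 72 h, against -0.90 and -0.54 at 0 h. That was a log2 fold change of 1.19 ± 0.70 (limma adjusted p = 0.364). The LC3 relatives Map1lc3a and Gabarapl1 had log2 fold changes of 0.62 ± 0.29 and 0.57 ± 0.51 (limma adjusted p = 0.23 and 0.606).

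The other 6 autophagy genes of the list were not called. Ulk1, the starting kinase, had a log2 fold change of 0.79 ± 0.32 against 0 h, and Wipi1, which binds its lipid phosphatidylinositol 3-phosphate, one of 0.89 ± 0.75. Becn1 and Uvrag, of the lipid kinase complex that makes it, were at 0.25 ± 0.30 and 1.15 ± 0.62. Atg7, the enzyme that activates ATG12 and LC3, was at -0.11 ± 0.34. Atg5 had the lowest value of the 46, -0.55 ± 0.40.

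**Figure D2:**
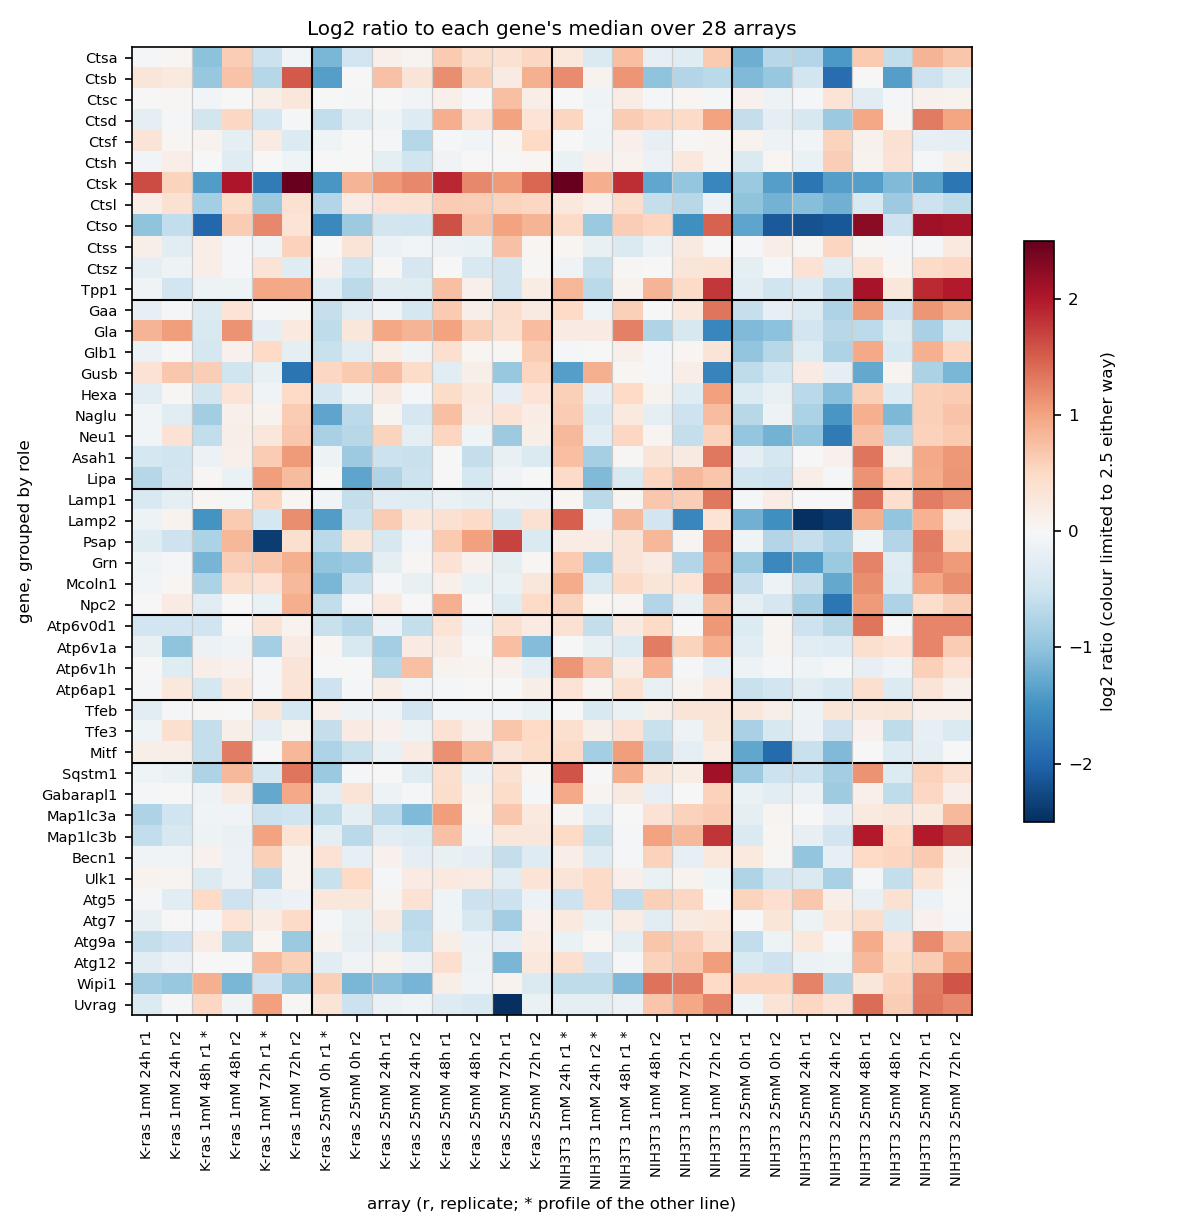
Log2 ratio of each of the 46 genes (rows, grouped by role, with black lines between roles) on each of the 28 arrays (columns, K-ras left and NIH3T3 right, 1 mM left of 25 mM, times ascending). Red is above and blue below the gene's median over the arrays, and asterisks mark the 6 arrays with the profile of the other line. Among NIH3T3 arrays at 25 mM most rows are red at 72 h and blue at 0 h, as Ctso is, with 2.11 and 2.08 at 72 h, against -1.32 and -2.10 at 0 h.

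Other genes of the same pathways were counted at 72 h against 0 h in NIH3T3, beside 3.68% of all genes called higher. Of 28 further lysosomal hydrolases, 8 were called higher and 0 lower, with a median of 0.88. They included Dpp7, a dipeptidyl peptidase (2.59 ± 0.73), Arsa, arylsulfatase A (1.96 ± 0.43), Siae, a sialate esterase (1.83 ± 0.50), and Man2b1, lysosomal α-mannosidase (1.64 ± 0.38). Of 31 further membrane proteins, 2 were called higher (Abcd4, a cobalamin transporter, 1.24 ± 0.31, and Cd81, a tetraspanin, 1.06 ± 0.30) and 0 lower, with a median of 0.97. Proton pump subunits outside the list had a smaller median: 2 of 19 were called higher, Atp6ap2 (1.67 ± 0.45) and Atp6v0a4 (0.68 ± 0.17), at 0.25 over the list.

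Of 32 genes for sorting and delivery to the lysosome, 2 were called higher, the adaptors Gga2 (1.46 ± 0.30) and Ap3d1 (1.03 ± 0.25), with a median of 0.23. Of 46 further autophagy genes, 7 were called higher and 0 lower, with a median of 0.52. Trp53inp1 and Trp53inp2, proteins that bind LC3, rose by 4.85 ± 0.87 and 1.96 ± 0.49, the kinase gene Ulk2 by 1.75 ± 0.41 and the cargo receptor Nbr1 by 1.43 ± 0.36. Of 42 genes of nutrient sensing at the lysosome, 5 were called higher and 1 lower, with a median of 0.46. The sestrins Sesn1 and Sesn3, which restrain mTORC1, rose by 3.26 ± 0.78 and 2.72 ± 0.61, the arginine sensor relative Castor2 rose by 1.27 ± 0.32, and Mlst8, a subunit of mTORC1, fell by 1.31 ± 0.28. Among 9 protease inhibitors, Cst3, cystatin C, rose by 1.10 ± 0.29. Errors here are SE from limma.

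Markers of other cell types were read in the same comparison. The 16 macrophage and osteoclast markers had a median change of -0.10 with 0 called, and their mean lay between 0.00 and 0.13 on the 72 h arrays and between 0.04 and 0.13 on the 0 h arrays. The 8 epithelial, 5 endothelial and 5 melanocyte markers had medians of 0.03, -0.25 and -0.13, with 0 called. The 10 fibroblast markers moved with the members: their median change was 1.32, 1 was called (Pdgfra, 3.73 ± 0.80, limma adjusted p = 0.0138), and their mean was 0.87 to 1.09 at 72 h against -0.72 to -0.39 at 0 h. Their part in the result was not tested.

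In K-ras cells at 25 mM, no member was called over time. At 72 h against 0 h, 0 of 46 were called by limma, where 0.0% of all genes were called, and the median was 0.39. At 72 h against 24 h, 0 were called, again where 0.0% of all genes were. The median there was 0.17, against 0.02 over all genes. An unadjusted p under 0.05 was found for 9 members and 2791 of 18193 genes against 0 h. Against 24 h it was found for 5 members and 1849 genes, near the same share. For 21 members both 72 h arrays lay above both 24 h arrays and for 4 below, where 20.9% of all genes had both above. Without replicate 2 of K-ras at 72 h, which leaves the array with the widest spread, 4 of 46 members (8.7%) were called in each comparison, where 14% of all genes were called against 0 h and 12.8% against 24 h.

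For members called in NIH3T3 the K-ras arrays of different times often overlapped. Tpp1 had log2 ratios of -0.29 and -0.66 at 0 h, -0.26 and -0.31 at 24 h, 0.76 and 0.12 at 48 h, and -0.46 and 0.18 at 72 h. Lamp1 had -0.06 and -0.60 at 0 h, -0.27 and -0.30 at 24 h, -0.16 and -0.22 at 48 h, and -0.12 and -0.15 at 72 h. Neither gene had a group that stood apart. Ctsd had -0.61 and -0.26 at 0 h, -0.10 and -0.32 at 24 h, 0.90 and 0.36 at 48 h, and 1.00 and 0.35 at 72 h. All 4 later Ctsd arrays lay above the earlier ones, and its log2 fold change of 1.11 ± 0.37 against 0 h was not called (limma adjusted p = 0.223). Map1lc3a had a log2 fold change of 1.34 ± 0.29 against 24 h (limma adjusted p = 0.441), and Map1lc3b one of 0.60 ± 0.47 (limma adjusted p = 0.688).

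The difference between the lines in their 72 h against 24 h change was tested as an interaction. Of 46 members 0 were called by limma, where 0.0055% of all genes were. An unadjusted p under 0.05 was found for 14 members and 2664 of 18193 genes. The median of the K-ras change minus the NIH3T3 change was -0.74, against 0.10 over all genes, with 9 of 46 positive. The largest differences were Lamp2 at -3.72 ± 1.13 (limma adjusted p = 0.221), Ctso at -2.85 ± 1.30, Neu1 at -2.52 ± 0.73 (limma adjusted p = 0.215), Uvrag at -2.32 ± 0.87 (-0.86 without replicate 1 of K-ras at 72 h), Grn at -2.28 ± 0.86 and Tpp1 at -2.26 ± 0.74. A different response of the lines was therefore not called for any member. By role, the median change against 24 h was 0.37 in K-ras and 0.51 in NIH3T3 for proteases, 0.26 and 1.25 for glycosidases and lipid hydrolases, 0.08 and 1.93 for membrane and luminal proteins, 0.09 and 0.90 for the pump, 0.37 and 0.04 for the factors, and 0.12 and 0.85 for autophagy.

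**Figure D3:**
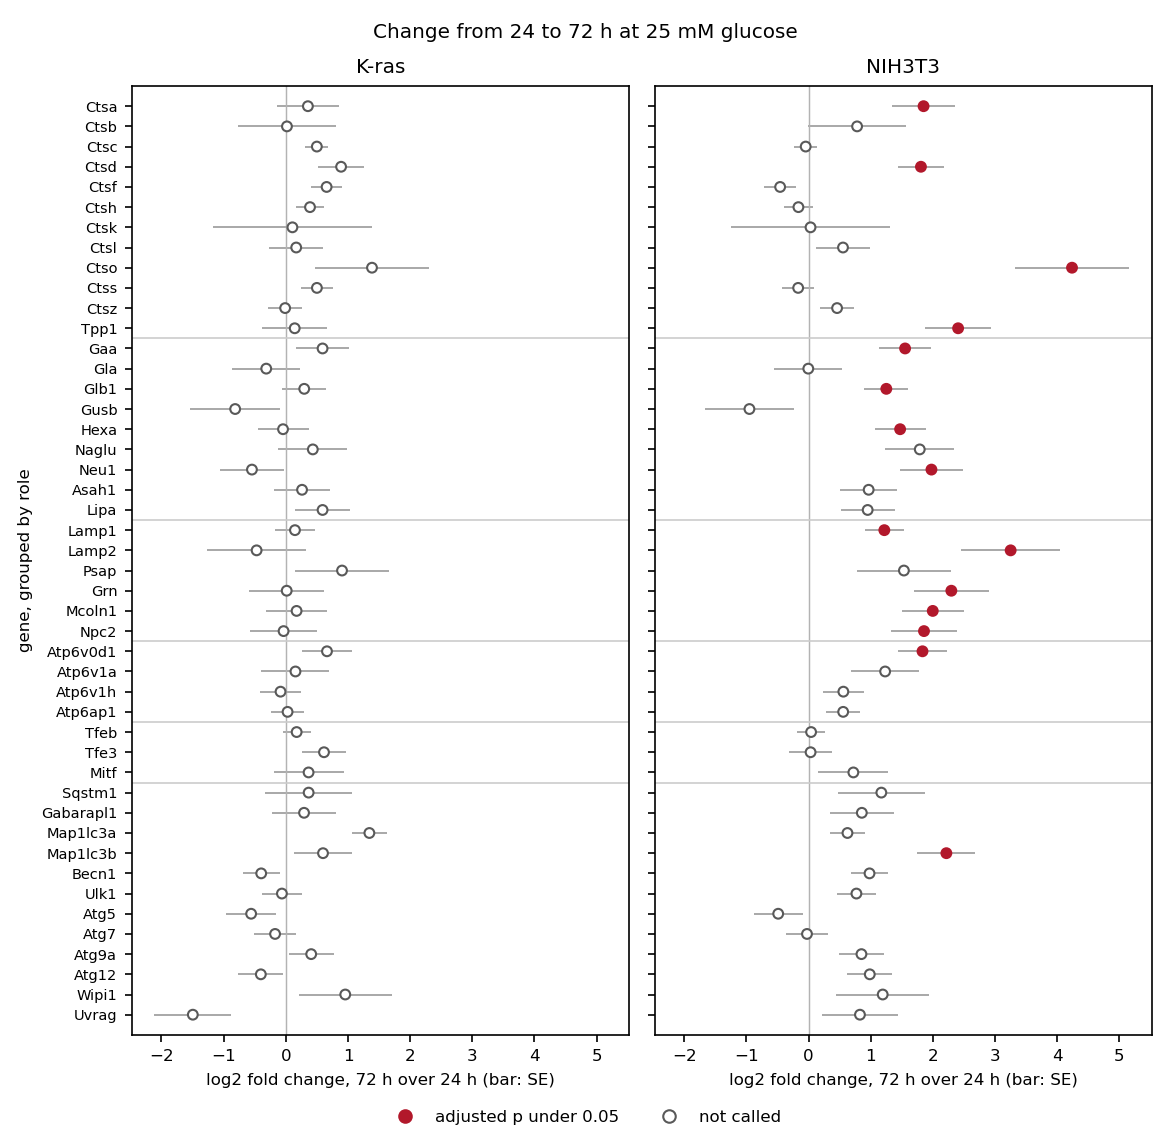
Log2 fold change at 72 h over 24 h at 25 mM glucose (x axis, bars are SE) for each of the 46 genes (y axis, grouped by role), in K-ras (left) and NIH3T3 (right). Filled points have an adjusted p under 0.05: 0 in K-ras and 15 in NIH3T3.

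Between the lines at 25 mM, averaged over the 4 times, 7 of 46 members (15.2%) were called, close to the 11.3% of all genes called. The median over the members was -0.03 (-0.01 without the 6 arrays of the other profile). Cathepsins K and L and α-galactosidase A were higher in K-ras, and Lamp1, acid ceramidase, acid lipase and Uvrag were lower. This comparison has 8 arrays a side.

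Ctsl ran from -0.74 through a median of 0.45 to 0.63 on the K-ras arrays, against -1.20, -0.95 and -0.38 on the NIH3T3 arrays. The K-ras array at -0.74 was replicate 1 at 0 h, which has the NIH3T3 profile, and the lowest of the other K-ras arrays was 0.21. Ctsl was higher by 1.18 ± 0.22 (SE, limma adjusted p = 0.00492), while a further probe set gave -0.06. Ctsk ran from -1.46 through 1.15 to 1.88 in K-ras, against -1.81, -1.38 and -0.93 in NIH3T3. Its lowest K-ras array was again replicate 1 at 0 h, the next 0.85, and it was higher by 2.30 ± 0.64 (SE, limma adjusted p = 0.0286). Gla ran from -0.63 through 0.68 to 1.00 in K-ras, against -1.10, -0.67 and -0.30 in NIH3T3, and was higher by 1.20 ± 0.27 (SE, limma adjusted p = 0.0102). Its other probe sets gave 0.31 each. Without that 0 h array these 3 genes did not overlap between the lines at 25 mM.

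None of these 3 genes was called at 24, 48 or 72 h, and the lines were not compared at 0 h alone. Without the 6 arrays of the other profile all 3 were called at each of those times. In those fits 6.29%, 5.49% and 8.89% of all genes were called. The log2 fold change of Ctsk was 2.74, 2.78 and 2.82 at 24, 48 and 72 h, that of Ctsl 1.50, 1.26 and 1.12, and that of Gla 1.48, 1.27 and 1.17. Of the 46 members, 2 (Ctsk and Ctso) are among the 500 genes that picked out the 6 arrays, so the Ctsk values on those arrays restate that choice. The K-ras arrays at 1 mM 72 h had -1.74 and 2.98, against -0.97 and -1.63 in NIH3T3. The first was replicate 1, one of the 6, whose Gapdh and β-actin probe sets had 3′ minus 5′ differences of 2.09 and 1.40, above those of every other array (at most 0.43 and 0.65). The part of RNA quality in its values was not tested.

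Lamp1 ran from -0.60 through -0.19 to -0.06 in K-ras, against -0.05, 0.31 and 1.37 in NIH3T3, so the lines met near 0 without overlap at 25 mM. It was lower in K-ras (-0.78 ± 0.16, SE, limma adjusted p = 0.00634). By time, the difference was -0.28 at 24 h, -1.09 at 48 h and -1.35 at 72 h. Asah1 (-0.78 ± 0.23) and Lipa (-0.74 ± 0.22) were lower in K-ras with overlapping ranges (limma adjusted p = 0.0362 each), and other probe sets of Lipa gave 0.10 and -0.62. Uvrag was lower in K-ras too (-1.26 ± 0.31, SE, limma adjusted p = 0.0146).

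Ctsl, Gla and Lamp1 were called in each of 22 alternative analyses of this average and Uvrag in 21. Ctsk was called in 13, Asah1 in 9 and Lipa in 8. Without the 6 arrays of the other profile 16 members (34.8%) were called, all 7 among them, where 17.9% of all genes were. The 9 that joined were Atg9a, Ctsb, Ctsz, Map1lc3b, Mitf, Tfe3, Tfeb, Ulk1 and Wipi1, named after their values were seen. Those 6 arrays were picked for their likeness to the other line, so leaving them out favours line differences. Ctsb averaged 1.14 ± 0.39 higher in K-ras with all arrays (limma adjusted p = 0.0715).

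**Figure D4:**
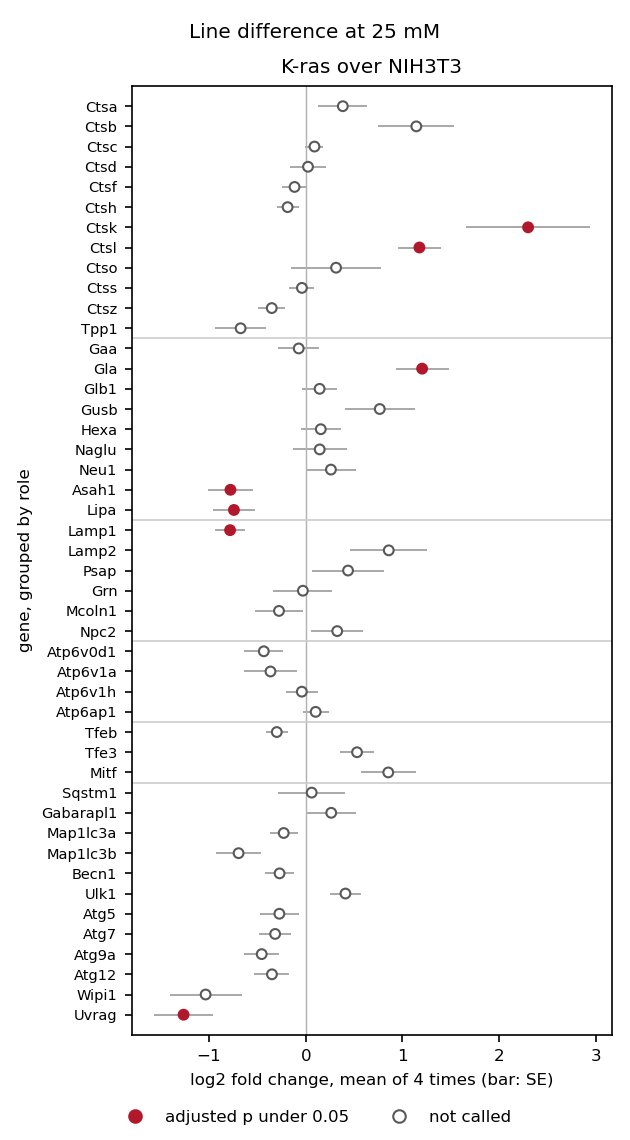
Log2 fold change of K-ras over NIH3T3 at 25 mM, averaged over 0, 24, 48 and 72 h (x axis, bars are SE), for each of the 46 genes (y axis, grouped by role). Filled points have an adjusted p under 0.05: Ctsk, Ctsl and Gla to the right of 0, Lamp1, Asah1, Lipa and Uvrag to the left.

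At single times few members were called between the lines. At 24 h 0 of 46 were called by limma, where 0.066% of all genes were called. The median was 0.35, or 0.14 to 0.47 with 1 array left out. An unadjusted p under 0.05 was found there for 13 members and 2780 of 18193 genes. At 48 h it was found for 8 members and 1867 genes. At that time 0 members were called, where 0.0165% of all genes were. The median was -0.06, with no stable sign: it was 0.29 without replicate 1 and -0.37 without replicate 2 of NIH3T3. At 72 h 1 was called, Uvrag, where 0.726% of all genes were, and the median was -0.43, against 0.03 over all genes. Uvrag had -3.10 and -0.16 on the K-ras arrays at 72 h, against 1.31 and 1.21 on the NIH3T3 arrays. The difference was -2.89 ± 0.62 (SE, limma adjusted p = 0.0422). Without the array at -3.10 it was -1.43 and not called (limma adjusted p = 0.313).

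Several members called in NIH3T3 over time had negative line differences at 72 h that were not called. Lamp1 had -0.12 and -0.15 in K-ras, against 1.27 and 1.16 in NIH3T3 (-1.35 ± 0.32, limma adjusted p = 0.0556). Tpp1 had -0.46 and 0.18, against 1.86 and 1.98 (-2.06 ± 0.53, limma adjusted p = 0.0671). Map1lc3b had 0.29 and 0.28, against 1.98 and 1.78 (-1.59 ± 0.47, limma adjusted p = 0.0879). In these 3 genes the lines did not overlap, which was common among the members at 72 h. Both K-ras arrays lay below both NIH3T3 arrays for 23 of 46 members and above them for 8. The share over all genes was not counted for this comparison. At 1 mM 72 h 0 members were called, where 0.253% of all genes were called. There 6 members and 2295 of 18193 genes had an unadjusted p under 0.05, near the same share. The median over the members was -0.16, 0.03 without the 6 arrays and -0.36 to 0.08 with 1 array left out.

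**Figure D5:**
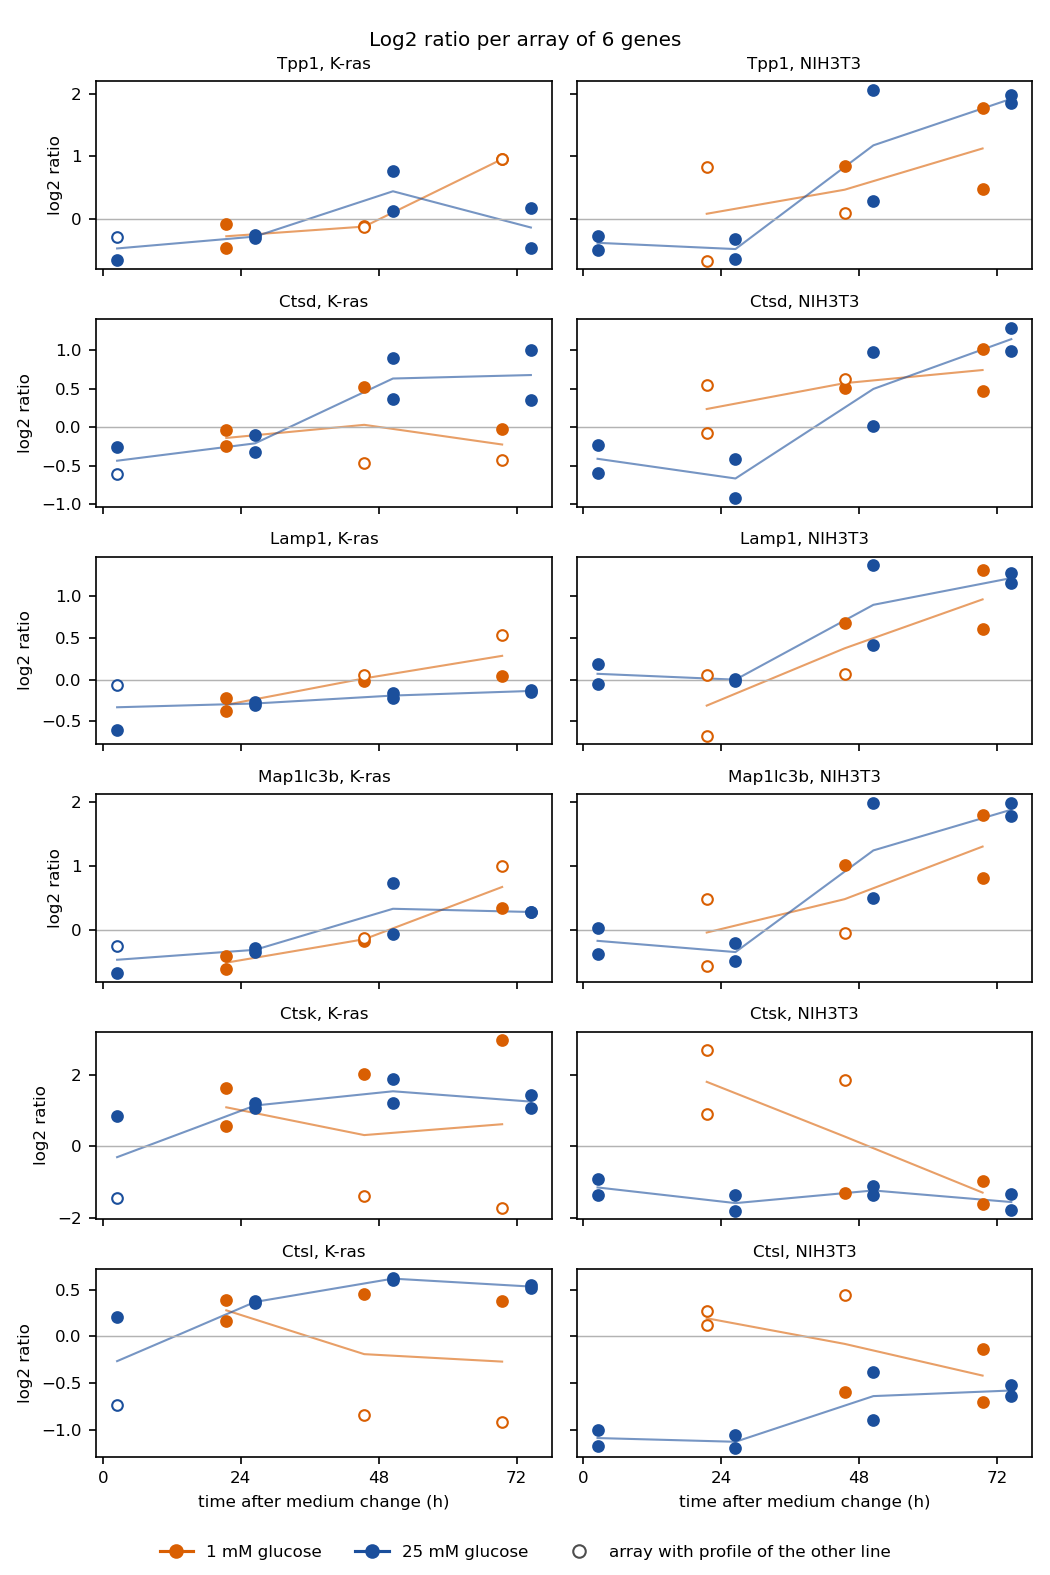
Log2 ratio on each array (y axis) by hours after the medium change (x axis, points moved sideways by glucose) for Tpp1, Ctsd, Lamp1, Map1lc3b, Ctsk and Ctsl, in K-ras (left) and NIH3T3 (right). Lines join group means and hollow points are arrays with the profile of the other line. Ctsk sits between 1.07 and 1.88 on K-ras arrays at 25 mM from 24 h on, against -1.81 to -1.11 in NIH3T3.

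Genes of the wider pathway were also counted between the lines, averaged over the times at 25 mM, where 11.3% of all genes were called. The lists had no test of their own. The counts for sorting, pump and nutrient sensing genes lay near that share. Of 32 sorting genes, 1 was called higher in K-ras and 3 lower. The higher was Igf2r, the receptor that carries hydrolases bearing mannose 6-phosphate (2.10 ± 0.50, limma adjusted p = 0.013). Of 9 protease inhibitors, 2 were called higher and 3 lower, among them Cst6, cystatin E/M (1.96 ± 0.59), and the cathepsin L inhibitors Ctla2a and Ctla2b (-4.44 ± 0.95 and -3.99 ± 0.85). Ctla2a ran from -2.93 through -1.83 to 2.72 on the K-ras arrays, against 0.69, 2.92 and 4.54 on the NIH3T3 arrays. The K-ras array at 2.72 was replicate 1 at 0 h, which has the NIH3T3 profile.

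Of 28 further hydrolases, 2 were called higher in K-ras and 4 lower, and of 31 further membrane proteins 1 and 6. The one higher was Cd68, a lysosomal glycoprotein that is also a macrophage marker (1.01 ± 0.20, limma adjusted p = 0.00647). Of the 16 macrophage and osteoclast markers, Cd68 was called higher and Lyz2, a lysozyme, lower (-2.06 ± 0.37, limma adjusted p = 0.00491), with a median of -0.08 over the 16. Of 8 epithelial markers 3 were called lower (Krt14 at -5.13, Cdh1 at -1.03 and Epcam at -0.34) and 0 higher, and of 10 fibroblast markers 1 was called higher (Pdgfra, 1.57). Their part in the line differences was not tested. The mean of those markers lay between -0.13 and 0.01 on K-ras arrays and between 0.00 and 0.18 on NIH3T3 arrays. Of 46 further autophagy genes, 5 were called higher and 7 lower. Atg9b, a relative of Atg9a, was higher by 2.33 ± 0.46, Vmp1, a scramblase of the endoplasmic reticulum, by 1.03 ± 0.22, and the tethering factor Epg5 by 0.89 ± 0.27. The fusion protein gene Snap29 was lower (-1.19 ± 0.37). Among 19 further pump subunits 1 was called higher and 1 lower, and among 42 nutrient sensing genes 2 and 2.

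Glucose was the study's treatment, and no member was called for it. Averaged over both lines and 24, 48 and 72 h, 0 of 46 members were called by limma for 1 mM against 25 mM. Of all genes 0.0% were called. There 1 member and 917 of 18193 genes had an unadjusted p under 0.05. The median over the members was 0.01 (-0.03 without the 6 arrays), the changes ran from -0.46 to 0.54, and 24 of 46 were positive. The lowest p belonged to Atg9a (-0.32 ± 0.15, limma adjusted p = 0.983). Sqstm1 had a log2 fold change of 0.42 ± 0.28 and Map1lc3b one of -0.22 ± 0.19. Sqstm1 ran from -0.77 through 0.23 to 2.09 on the 12 arrays at 1 mM, against -0.86, 0.01 and 1.13 on the 12 arrays at 25 mM, so the groups overlapped.

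Within a line and time, 0 members were called by limma at 1 mM against 25 mM. In NIH3T3 the medians were 0.55 at 24 h, -0.05 at 48 h and -0.21 at 72 h. The shares of all genes called were 0.0055%, 0.0% and 0.011%. An unadjusted p under 0.05 was found for 13, 0 and 1 members and for 2933, 248 and 1224 of 18193 genes. Both 1 mM arrays at 24 h have the K-ras profile, as has replicate 1 at 48 h, without which the 48 h median was -0.16. With 1 array left out the 48 h median ran from -0.33 to 0.43, the 24 h median from 0.36 to 0.81 and the 72 h median from -0.34 to -0.04. In K-ras the medians were -0.01 at 24 h, -0.32 at 48 h and -0.02 at 72 h. The shares of all genes called were 0.0%, 0.0% and 0.181%. An unadjusted p under 0.05 was found for 1, 1 and 9 members and for 117, 759 and 2791 of 18193 genes. Replicate 1 at 1 mM has the NIH3T3 profile at 48 and 72 h, and without it the medians were -0.05 and 0.19. With 1 array left out they ran from -0.57 to -0.05 and from -0.11 to 0.19. The interaction of line and glucose, chosen after the data were seen, called 0 members at 24, 48 and 72 h. At 72 h in NIH3T3, Lamp1 had 0.61 and 1.31 at 1 mM, against 1.27 and 1.16 at 25 mM, and Sqstm1 had 0.18 and 2.09 at 1 mM, against 0.57 and 0.38 at 25 mM. The 1 mM replicates differed more from each other than from the 25 mM arrays in both genes.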

How the data were processed

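Total RNA from 28 cultures of K-ras and NIH3T3 cells was hybridised to Affymetrix expression arrays, 1 per culture, per the labels' protocols. The deposited table holds log2 values for 45101 probe sets. RMA is named per the submitters' processing notes, with no version. Tested on the table, the linear ratio of each of the 45101 probe sets has a median of 1 within 0.001 over the 28 arrays, so the authors' log2 values are relative to that median. No absolute level, detection call or background is known, and the number of arrays limits the precision. Probe sets were named from the platform annotation: 34945 had 1 symbol, and those with several (932) or none (9160) and 64 control probe sets were left out. Of genes with over 1 probe set there were 9010. limma 3.58.1 in R 4.3.3 was fitted to all 28 arrays with 14 groups (lmFit, eBayes), checked on simulated data, with Benjamini-Hochberg adjustment over 18193 genes. Named members were those called, with Tfeb, Tfe3, Mitf, Sqstm1, Map1lc3a, Map1lc3b, Gabarapl1, Lamp1, Lamp2, Ctsb, Ctsd and Ctsl in any case; each other list gave up to 4 called genes by size of change. The members, lists, tests and alternatives were chosen with earlier results of these data known. Alternatives were quantile normalisation, an SD filter, the mean of probe sets, the replicate number as a block, fits of the compared arrays alone, and leaving out the 6 arrays of the other profile or single arrays. Promoter windows are from RefSeq (GRCm38.p6).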

Additional observations from a re-analysis of the deposited data

How the results depend on the processing

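No called result changed direction. Percentages in parentheses are the share of all genes called under the same setting. The members called at 72 h against 0 h in NIH3T3 (9) were 3 with quantile normalisation (3.28% of all genes called), 14 with the SD filter (12.5%), 14 without the 6 arrays of the other profile (10.7%), 30 with only the compared arrays fitted (27%), and 0 with any 1 array left out. Those called against 24 h (15) were 4 with quantile normalisation (2.26%), 25 with only the compared arrays (19.5%) and 0 to 2 with 1 array left out; the 2 called without replicate 1 of NIH3T3 at 24 h were Ctsd and Map1lc3b. At 48 h against 0 h (0), 2 were called without the 6 arrays (1.79%), and 0 to 4 with 1 array left out (2.45% at 4). In K-ras over time (0 in each comparison) and for the interaction (0), leaving out 1 array gave 0 to 4 (the 4 without replicate 2 of K-ras at 72 h, where 14%, 12.8% and 11.3% of all genes were called), and fitting only the compared arrays gave 2 for the interaction, Ctso and Lamp2. For K-ras against NIH3T3 at 24 h (0), 5 were called without the 6 arrays (6.29%) and 5 with only the compared arrays (5.65%). At 48 h (0) the same settings gave 6 (5.49%) and 1 (1.52%). At 72 h (1) they gave 10 (8.89%) and 3 (2.28%), quantile normalisation 0, the SD filter 3, the mean of probe sets 2 and 1 array left out 0 to 5, the 5 without replicate 2 of K-ras (16.6%). For the average of 4 times (7) the SD filter gave 11 (23.2%), the fit without the 6 arrays 16 (17.9%), only the compared arrays 15 (15.6%) and 1 array left out 3 to 11; 3 without replicate 2 and 11 without replicate 1 of K-ras at 0 h, and 4 without replicate 2 of NIH3T3 at 0 h, replicate 1 at 24 h, either replicate at 72 h or either replicate of K-ras at 24 h. At 1 mM 72 h (0), 3 were called without the 6 arrays (8.09%). For glucose in K-ras at 72 h (0), leaving out 1 array gave 0 to 5, the 5 without replicate 2 at 25 mM (13.8%). NIH3T3 at 1 mM 24 h has no array without the 6, so its glucose comparison was not run there and the average used the other 5 pairs of line and time. Beside the 2 members of the interaction, 0.385% of all genes were called. Between the lines at 72 h, 3.47% were called with the SD filter and 1.39% with the mean of probe sets. Groups left with 1 array were assumed to vary like the others.

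With the replicate number as a block, 9 members were called at 72 h against 0 h in NIH3T3 (5.13% of all genes) and 12 against 24 h (5.47%). That setting called 0 for K-ras against NIH3T3 at 72 h and 7 for the average (10.7%). The numbers were not shown to pair the samples: the deviations of same-numbered arrays correlated above 0.1 in 23 of 91 pairs of groups, with a median of -0.037. Over all alternatives, 242 values of called members kept their side of the threshold and 162 lost it. The median over the members ranged from 0.78 to 1.17 at 72 h against 0 h and from 0.74 to 1.18 against 24 h. Signal over background is unknown, so changes of dim genes may be understated.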
